A study of Homo sapiens with 18 samples.

Results

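Genes of homologous recombination, of the Fanconi pathway and of the checkpoint that works with them were followed in 3 human lung cancer cell lines given CCS1477 or its solvent DMSO. The rule that lists the 37 genes by symbol uses no measured value, but the list was chosen with earlier results of these data known. Counts of members against a background or against other lists are therefore a description. Each of the 37 genes had a gene row in all 3 deposited tables, which share 14230 gene rows. The H460 table has 16424, that of H2023 18140 and that of ABC-1 16910. The label of the list is homologous recombination and Fanconi repair, and it holds besides these 5 genes of the checkpoint. CCS1477 (inobrodib) is a small molecule that binds the bromodomain of the acetyltransferases p300 and CBP, coactivators of transcription. The study asked what it does to transcript levels where NRF2, a transcription factor that responds to oxidants, is active. The groups were H460 cells with CCS1477 and with DMSO, H2023 cells with CCS1477 and with DMSO, and ABC-1 cells with CCS1477 and with DMSO, each with 3 libraries of total RNA taken after 24 h. The series names H460, labelled a large cell lung carcinoma, and H2023, labelled a squamous cell lung carcinoma, as NRF2-activated, and ABC-1, labelled a lung adenocarcinoma, as wildtype. One line stands for the wildtype state, so a difference from ABC-1 cannot be told apart from any other difference between the lines. The dose was 5 µM in the descriptions of the samples and is given in mM in the series text, and 5 µM is used here. The labels do not say whether replicates came from separate cultures, so a p-value measures only the spread between these libraries.

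Homologous recombination repairs a broken chromosome from an intact copy: the ends are cut back to single strands, and these are paired, with the help of BRCA2, with their match on the sister chromatid. The Fanconi pathway removes crosslinks between the DNA strands, and its core complex attaches ubiquitin to FANCD2 and FANCI, which then close around the DNA. ATM and ATR are the kinases that sense breaks and stalled replication forks and signal through CHEK2 and CHEK1. Transcripts of many of these genes are most abundant in cells that replicate their DNA, and inherited defects in several of them predispose to cancer.

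Values are given as CPM, the reads of the gene divided by all reads of the library and scaled to the usual unit, and as the log2 change of CCS1477 over DMSO with its SE, taken from the deposited log2 values. A gene was called lower or higher where the adjusted p of limma (Benjamini-Hochberg over all genes tested in that line) was under 0.05. Libraries held 26652258 to 33568236 reads in H460, 15352630 to 18261168 in H2023 and 14483986 to 17483295 in ABC-1. CCS1477 replicate 1 of H460 stood apart: as a multiple of the squared difference that counting noise alone gives, its distance was 36.9 to replicate 2 and 41.4 to replicate 3, where all other pairs of replicates lay at 2.76 to 6.68. The keratins and other epithelial markers summed to 2472 CPM or more in every library, led by KRT8. In H460 CDH1, the epithelial cadherin, had no gene row, and 3 of the 5 epithelial markers reached a mean of 1 CPM. CD3E, CD79A, CDH5 and KDR, markers of lymphocytes and of endothelium, had no gene row in any table. Other markers on these lists had reads: the leukocyte list, led by CD68, summed to 2.69 to 17.7 CPM with CCS1477 and 2.83 to 30.2 CPM with DMSO over the lines, and the endothelial list to at most 0.34 CPM with CCS1477 and 3.12 CPM with DMSO. The fibroblast list, of collagen and other stromal genes, summed to 8.00 to 8.91 CPM with CCS1477 in H460, against 29.3 to 31.7 CPM with DMSO, and to 22.6 to 23.6 CPM with CCS1477 in ABC-1, against 6.84 to 8.03 CPM with DMSO. In H2023 its sums overlapped, at 5.16 to 7.82 CPM with CCS1477 and 6.37 to 7.56 CPM with DMSO, and the part of these markers in the results was not tested. The squamous label of H2023 was not borne out by its markers: KRT5, KRT6A, KRT14, DSG3 and SOX2 had no gene row, and TP63 did not pass 2.14 CPM. On the adenocarcinoma list, NKX2-1, SFTPB and SFTPC had no gene row in H2023 either, and only the keratin KRT7 reached a mean of 1 CPM. The sum of that list in H2023 was 590.5 to 637.5 CPM with CCS1477 and 1538 to 1600 CPM with DMSO. In ABC-1 the surfactant genes SFTPB and SFTPC and NAPSA had no gene row, and the sum of the adenocarcinoma markers was at most 4.07 CPM, while the squamous list, led by SOX2, summed to 65.3 to 69.2 CPM with CCS1477 and 147 to 155 CPM with DMSO.

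Most of the 37 genes were lower after CCS1477 in H2023 and ABC-1, and the changes were smaller in H460. In H460 20 members were lower and 3 higher, against a background over all genes tested of 27.9% lower and 28.2% higher. In H2023 32 members were lower and 1 higher, with a background of 31.9% lower and 28.6% higher. In ABC-1 29 members were lower and 2 higher, with a background of 32.6% lower and 33.5% higher. The same backgrounds apply to the counts by role and of other lists below. The median log2 change of the members was -0.15 in H460, it was -0.55 in H2023 and it was -0.88 in ABC-1, while the median over all genes tested was 0.00, -0.01 and 0.01. A log2 change under -1 was reached by 1 member in H460, by 4 in H2023 and by 16 in ABC-1, and by 4.45%, 5.33% and 8.28% of all genes tested in these lines. All 37 members passed the filter on low values in every line. RNA of a whole culture was sequenced, so fewer cells that express a gene and less of its RNA in each cell cannot be told apart.

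**Figure D1:**
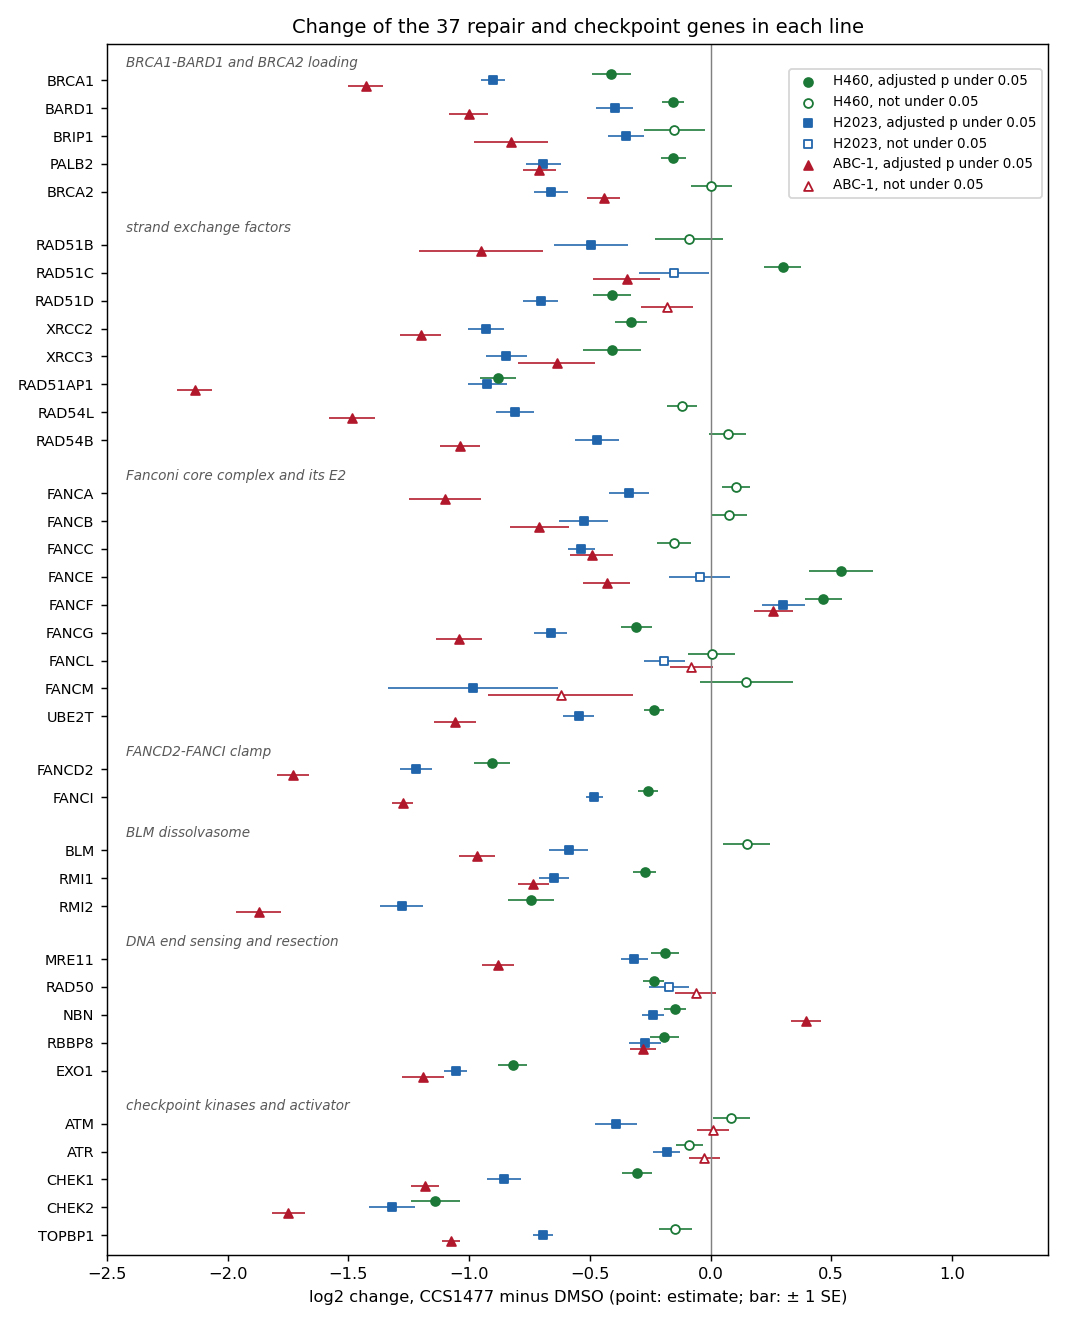
Log2 change of each member, CCS1477 minus DMSO, in H460 (circles), H2023 (squares) and ABC-1 (triangles), ordered by role; bars are ± 1 SE of the limma fit and open symbols did not pass an adjusted p of 0.05. Most symbols lie left of 0, with ABC-1 farthest to the left for 27 of the 37 genes and H460 farthest to the right for 33.

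All 3 CCS1477 libraries lay below all 3 DMSO libraries for 17 members in H460, where 26.0% of all genes tested did so, for 29 in H2023 (background 30.5%) and for 29 in ABC-1 (background 31.3%). The opposite order held for 4 members in H460 (background 38.9%), for 1 in H2023 (background 35.8%) and for 2 in ABC-1 (background 40.5%). Overlap of groups was read here and below on CPM, which scale by library totals, while calls used the deposited scaling. The median log2 change of all genes in H460 was 0.07 with library totals and 0.00 with the deposited scaling. Summed over the 37 genes, the level was 1455 ± 62 CPM with CCS1477 and 1680 ± 12 CPM with DMSO in H460 (mean ± SD, n = 3 each). EXO1, the most abundant member in DMSO libraries of H460 at 298 CPM, changed by -0.82 on the log2 scale there and weighs heavily in that drop. The sums were 1259 ± 33 CPM with CCS1477 and 1786 ± 38 CPM with DMSO in H2023, and 935 ± 40 CPM with CCS1477 and 1525 ± 14 CPM with DMSO in ABC-1. In each line the highest sum with CCS1477 was below the lowest sum with DMSO. Without CCS1477 replicate 1 of H460, 19 members were lower and 3 higher in that line, and the median log2 change was -0.14.

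Markers of proliferation moved with these genes. Of the 16 listed markers, 11 were lower and 1 higher in H460, 14 lower and 2 higher in H2023, and all 16 were lower in ABC-1, with median log2 changes of -0.23, -0.77 and -1.64. Their summed level was 3577 ± 173 CPM with CCS1477 and 3714 ± 30 CPM with DMSO in H460, 2666 ± 22 CPM with CCS1477 and 3942 ± 129 CPM with DMSO in H2023, and 1350 ± 70 CPM with CCS1477 and 3546 ± 25 CPM with DMSO in ABC-1 (mean ± SD, n = 3 each). MCM5, a subunit of the replicative helicase, changed on the log2 scale by -0.61 ± 0.07 in H460, by -1.21 ± 0.04 in H2023 and by -2.00 ± 0.04 in ABC-1. AURKA, a mitotic kinase, changed by -0.84 ± 0.05 in H460 and by -1.16 ± 0.04 in H2023, while BUB1, a mitotic checkpoint kinase, rose by 0.42 ± 0.04 in H460. The summed marker levels of the groups overlapped in H460, at 3381 to 3707 CPM with CCS1477 and 3679 to 3734 CPM with DMSO, and were apart in the other lines. The order of the lines was the same for the markers as for the members, and the part of proliferation in the members' changes was not tested.

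In all, 17 of the 37 members were lower in all 3 lines (45.9%), against 12.7% of the 11757 genes tested in every line. These were BRCA1, BARD1, PALB2, XRCC2, XRCC3, RAD51AP1, FANCG, UBE2T, FANCD2, FANCI, RMI1, RMI2, MRE11, RBBP8, EXO1, CHEK1 and CHEK2. The count rests in part on weak calls in H460, where 8 of 23 calls of members ended in at least 1 alternative. Among the 17, the H460 calls of BARD1, PALB2, XRCC3, MRE11 and RBBP8 ended when 1 library was left out. Those of BARD1, PALB2, MRE11 and RBBP8 also ended with scaling by library totals. A further 10 (27%, against 6.52% of all genes) were lower in H2023 and ABC-1 and not called in H460, namely BRIP1, BRCA2, RAD51B, RAD54L, RAD54B, FANCA, FANCB, FANCC, BLM and TOPBP1. RAD51D was lower in H460 and H2023, RAD50 in H460 alone, and FANCM, ATM and ATR in H2023 alone, and these absences of a call in the other lines are no test of a difference. FANCF was higher in all 3 lines, 2.7% of members against 14.7% of all genes, and FANCL was called in none, 2.7% against 12.4%. RAD51C, FANCE and NBN had opposite calls in 2 lines, 8.11% of members against 12.2% of all genes. Across the 37 genes the changes correlated between lines, with Pearson's r of 0.78 for H460 and H2023, 0.65 for H460 and ABC-1 and 0.75 for H2023 and ABC-1, against 0.62, 0.45 and 0.56 across all 11757 genes. The lines share no control libraries, but genes are not independent replicates, and these r are a description.

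Promoter sequences are shown for 4 members whose changes mark the ends of the list: CHEK2 and RAD51AP1 had the lowest mean log2 change over the 3 lines among members lower in all of them, FANCF was higher in all, and FANCL was called in none. Each run is the 250 bases before the gene's start in the direction of the gene, from RefSeq on GRCh38.p14, 5′ to 3′. Capitals mark 2 kinds of letters searched on both strands: CCAAT, the letters read by NF-Y, which appear as ATTGG on the other strand, and a set read by E2F factors, the regulators of S phase genes. That set is TTCCCGC as first spelling, TTGGCGC as another, then TTCGCGC as well, and last TTGCCGC, each also as its reverse complement. The windows are chr22:28741821-28742070 (minus strand) for CHEK2, chr12:4538640-4538889 (plus) for RAD51AP1, chr11:22625824-22626073 (minus) for FANCF and chr2:58241326-58241575 (minus) for FANCL. In the GENCODE 29 annotation the gene starts lie 602 bases from that of CHEK2, 92 from RAD51AP1, 18 from FANCF and 47 from FANCL.
CHEK2: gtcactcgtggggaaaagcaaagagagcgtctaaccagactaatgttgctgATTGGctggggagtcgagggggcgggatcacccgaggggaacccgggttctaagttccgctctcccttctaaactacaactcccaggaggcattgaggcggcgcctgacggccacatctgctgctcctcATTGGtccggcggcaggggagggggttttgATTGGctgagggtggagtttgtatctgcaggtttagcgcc
RAD51AP1: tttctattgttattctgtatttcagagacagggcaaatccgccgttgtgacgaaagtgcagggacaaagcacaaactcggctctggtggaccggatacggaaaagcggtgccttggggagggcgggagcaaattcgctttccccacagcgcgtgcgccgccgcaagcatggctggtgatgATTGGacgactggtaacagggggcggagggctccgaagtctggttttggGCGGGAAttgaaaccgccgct
FANCF: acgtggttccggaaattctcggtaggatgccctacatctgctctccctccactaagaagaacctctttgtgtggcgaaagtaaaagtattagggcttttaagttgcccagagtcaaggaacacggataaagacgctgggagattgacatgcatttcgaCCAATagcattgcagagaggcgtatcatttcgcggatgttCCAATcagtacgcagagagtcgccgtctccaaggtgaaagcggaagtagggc
FANCL: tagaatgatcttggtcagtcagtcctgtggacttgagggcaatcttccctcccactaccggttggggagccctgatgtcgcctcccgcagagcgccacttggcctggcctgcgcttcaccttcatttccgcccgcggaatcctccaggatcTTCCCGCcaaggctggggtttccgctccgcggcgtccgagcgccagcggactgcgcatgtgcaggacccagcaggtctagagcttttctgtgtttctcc

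The CHEK2 window held 3 ATTGG, 199, 70 and 40 bases before the start, and none of the E2F letters. RAD51AP1 held ATTGG at 70 bases and GCGGGAA at 21 bases before the start. The window of FANCF, which rose, held CCAAT at 92 and 52 bases, and that of FANCL held TTCCCGC at 99 bases before the start. RefSeq starts were found for 33 members, with 45 starts in all; RAD54B, FANCI, RMI2 and NBN are named only. The E2F letters stood in 13 of the 45 windows of 250 bases (28.9%), against 10.9% of all 35116 promoters and 16.9% of the 13319 promoters of tested genes. With the 50 bases after the start included, the count was 22 of 45 (48.9%), against 13.0% of all promoters and 20% of those of tested genes. In these wider windows FANCF, which rose, also had E2F letters, and CHEK2 had none. CCAAT stood in 44.4% of the members' 250-base windows, 32.0% of all promoters and 33.7% of those of tested genes, and TTTGAA, or its variant TTCGAA, the letters of the cell cycle homology region, in 8.89%, 14.3% and 10.3%. In the wider windows these shares were 44.4%, 34.6% and 35.4% for CCAAT and 8.89%, 16.4% and 11.8% for the letters of that region. Such matches describe letters and do not show binding, and both rising and falling members carried them.

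BRCA1, BARD1, BRIP1, PALB2 and BRCA2 fell in H2023 and in ABC-1, and 3 of them fell in H460. BRCA1, which with BARD1 forms a ubiquitin ligase that promotes recombination, stood at 24.1, 27.2 and 21.9 CPM in CCS1477 libraries of ABC-1, against 61.2, 64.5 and 64.0 CPM in DMSO libraries. In H2023 it had 45.3, 50.1 and 47.0 CPM with CCS1477, against 83.3, 86.8 and 86.6 CPM with DMSO, and in H460 64.3, 81.8 and 70.9 CPM with CCS1477, against 92.8, 91.5 and 88.6 CPM with DMSO. Every CCS1477 library of BRCA1 lay below every DMSO library of the same line. Its log2 change was -0.41 ± 0.08 in H460 (adjusted p = 0.00287), -0.90 ± 0.05 in H2023 (adjusted p = 1.02e-07), with -1.43 ± 0.07 in ABC-1 (adjusted p = 1.73e-08). BARD1 followed the same order, with 19.7, 23.5 and 18.6 CPM after CCS1477 in ABC-1, against 38.2, 40.4 and 40.3 CPM after DMSO, and 26.6, 29.6 and 24.4 CPM against 35.0, 35.3 and 31.9 CPM in the same groups of H2023. The groups of BARD1 did not overlap in either line, and its log2 change was -0.40 ± 0.08 in H2023 and -1.001 ± 0.08 in ABC-1. In H460 BARD1 changed by -0.16 ± 0.05 (adjusted p = 0.0213), a call that ended without CCS1477 replicate 2, DMSO replicate 2 or DMSO replicate 3 (adjusted p 0.0581 to 0.0683) and with scaling by library totals, where the log2 change was -0.08 (adjusted p = 0.151).

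PALB2 bridges BRCA1 and BRCA2. It stood at 22.9, 24.8 and 26.8 CPM with CCS1477 in H2023, against 40.5, 39.9 and 36.1 CPM with DMSO, and at 15.8, 16.3 and 17.5 CPM with CCS1477 in ABC-1, against 26.9, 25.04 and 26.6 CPM with DMSO. The groups were apart in both lines, and the log2 changes were close to each other, -0.69 ± 0.07 in H2023 and -0.71 ± 0.07 in ABC-1. In H460 PALB2 changed by -0.15 ± 0.05 (adjusted p = 0.0333), and this call ended without CCS1477 replicate 1, CCS1477 replicate 2 or any 1 of the DMSO libraries (adjusted p 0.0578 to 0.0945) and with scaling by library totals, at a log2 change of -0.08 (adjusted p = 0.206). BRCA2, which prepares single-stranded DNA for strand exchange, had 52.1, 65.2 and 63.2 CPM with CCS1477 in H460, against 59.96, 55.3 and 55.3 CPM with DMSO. These groups overlapped, and the log2 change was 0.00 ± 0.09 (adjusted p = 0.983). In H2023 the level of BRCA2 was 72.8, 67.1 and 61.0 CPM with CCS1477, against 108, 105 and 93.3 CPM with DMSO, and in ABC-1 32.9, 38.3 and 39.2 CPM with CCS1477, against 47.0, 45.5 and 51.3 CPM with DMSO. The groups were apart in both lines, at log2 changes of -0.66 ± 0.07 and -0.44 ± 0.07, and BRCA2 was 1 of 9 members whose lowest change was in H2023. BRIP1, a helicase that binds BRCA1, changed by -0.15 ± 0.13 in H460 (adjusted p = 0.337), by -0.35 ± 0.07 in H2023 (adjusted p = 0.00192) and by -0.83 ± 0.15 in ABC-1 (adjusted p = 0.000623).

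Among the strand exchange factors, 4 of 8 were lower and 1 higher in H460, and 7 of 8 were lower in each of the other lines. RAD51AP1, which helps DNA strands pair, had the lowest change of any member in ABC-1. It stood at 10.1, 8.94 and 9.40 CPM with CCS1477 in ABC-1, against 40.9, 40.8 and 40.8 CPM with DMSO. The levels with CCS1477 were near each other in the 3 lines, with 11.0, 9.80 and 10.3 CPM in H460 and 11.1, 11.3 and 12.5 CPM in H2023, where DMSO libraries had 19.1, 17.4 and 18.2 CPM and 22.2, 21.96 and 20.4 CPM. No CCS1477 library reached the lowest DMSO library of its line. RAD51AP1 changed by -0.88 ± 0.07 in H460, by -0.93 ± 0.08 in H2023 and by -2.14 ± 0.07 in ABC-1 (adjusted p = 3.38e-05, 2.95e-06 and 7.92e-10). A pseudogene copy, RAD51AP1P1, is annotated, and how reads shared with it were counted is not given in the sources used here.

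RAD54L and RAD54B are DNA translocases that act during strand exchange. RAD54L had 7.49, 7.46 and 6.64 CPM with CCS1477 in ABC-1, against 18.6, 20.7 and 20.02 CPM with DMSO, and 16.2, 16.8 and 13.9 CPM with CCS1477 in H2023, against 26.0, 26.3 and 27.2 CPM with DMSO. In H460 the values were 16.1, 16.5 and 16.4 CPM with CCS1477, against 16.2, 16.8 and 17.6 CPM with DMSO. The groups overlapped in H460 and lay far apart in the other lines, at log2 changes of -0.12 ± 0.06 (adjusted p = 0.14), -0.81 ± 0.08 (adjusted p = 6.78e-06) and -1.48 ± 0.09 (adjusted p = 1.11e-07) in H460, H2023 and ABC-1. RAD54B changed by 0.07 ± 0.08 in H460 (adjusted p = 0.458), by -0.47 ± 0.09 in H2023 and by -1.04 ± 0.08 in ABC-1. In ABC-1 its level was 11.8, 13.2 and 11.7 CPM with CCS1477, against 24.1, 25.8 and 23.2 CPM with DMSO, with no overlap. Exons of RAD54B share 3139 bases with FSBP on the same strand, and those of RAD54L share 806 bases with LRRC41 on the other strand, so some reads may belong to these neighbours.

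XRCC2, XRCC3, RAD51B, RAD51C and RAD51D form complexes that assist strand exchange, and their calls differed. XRCC2 had 16.9, 19.8 and 15.2 CPM with CCS1477 in ABC-1, against 37.8, 37.6 and 39.5 CPM with DMSO, and 27.4, 32.4 and 32.5 CPM with CCS1477 in H2023, against 54.7, 59.9 and 55.2 CPM with DMSO. Its groups were apart in every line, and it fell by 0.33 ± 0.06 in H460, by 0.93 ± 0.08 in H2023 and by 1.20 ± 0.08 in ABC-1 on the log2 scale. XRCC3 changed by -0.85 ± 0.09 in H2023 and by -0.64 ± 0.16 in ABC-1, and by -0.41 ± 0.12 in H460 (adjusted p = 0.02). The H460 groups of XRCC3 overlapped, at 32.5, 23.1 and 24.9 CPM with CCS1477, against 35.3, 31.0 and 34.5 CPM with DMSO, and the call ended without CCS1477 replicate 2 or 3 or without DMSO replicate 1 or 3 (adjusted p 0.0599 to 0.0656). Exons of XRCC3 overlap those of KLC1 on the other strand over 5756 bases, and whether counting used strand is not given in the sources used here. RAD51D was lower in H460 and H2023, at -0.41 ± 0.08 and -0.70 ± 0.07, and had 10.6, 12.2 and 11.5 CPM with CCS1477 in ABC-1, against 11.6, 14.1 and 11.8 CPM with DMSO, groups that overlapped (adjusted p = 0.161). Its exons share 905 bases with the read-through gene RAD51L3-RFFL.

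RAD51B, the least abundant member per kb of exon in every line, had 1.26, 2.55 and 2.63 CPM with CCS1477 in ABC-1, against 3.25, 4.79 and 4.21 CPM with DMSO. The groups did not overlap, and RAD51B changed by -0.95 ± 0.26 (adjusted p = 0.00668). In H2023 its change of -0.50 ± 0.15 (adjusted p = 0.0165) was no longer called without CCS1477 replicate 2, DMSO replicate 2 or DMSO replicate 3 (adjusted p 0.0565 to 0.0619). RAD51C, a subunit of both kinds of complex, stood at 14.4, 13.2 and 13.2 CPM with CCS1477 in H460, against 10.5, 11.0 and 9.87 CPM with DMSO, a rise of 0.30 ± 0.08 (adjusted p = 0.0107). In ABC-1 it stood at 3.95, 3.43 and 3.51 CPM with CCS1477, against 4.33, 4.60 and 4.56 CPM with DMSO, a change of -0.35 ± 0.14 (adjusted p = 0.045). Both calls rest on part of its reads, since 57.7 to 65.3% of the reads of RAD51C stood in transcript rows of the tables, apart from the gene row. With these added, the log2 change was -0.04 in H460 (adjusted p = 0.535), -0.22 in H2023 (adjusted p = 0.0184), and it was -0.21 in ABC-1 (adjusted p = 0.209). The ABC-1 call also ended without CCS1477 replicate 2 or 3 or any 1 of the DMSO libraries (adjusted p 0.0623 to 0.124).

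**Figure D2:**
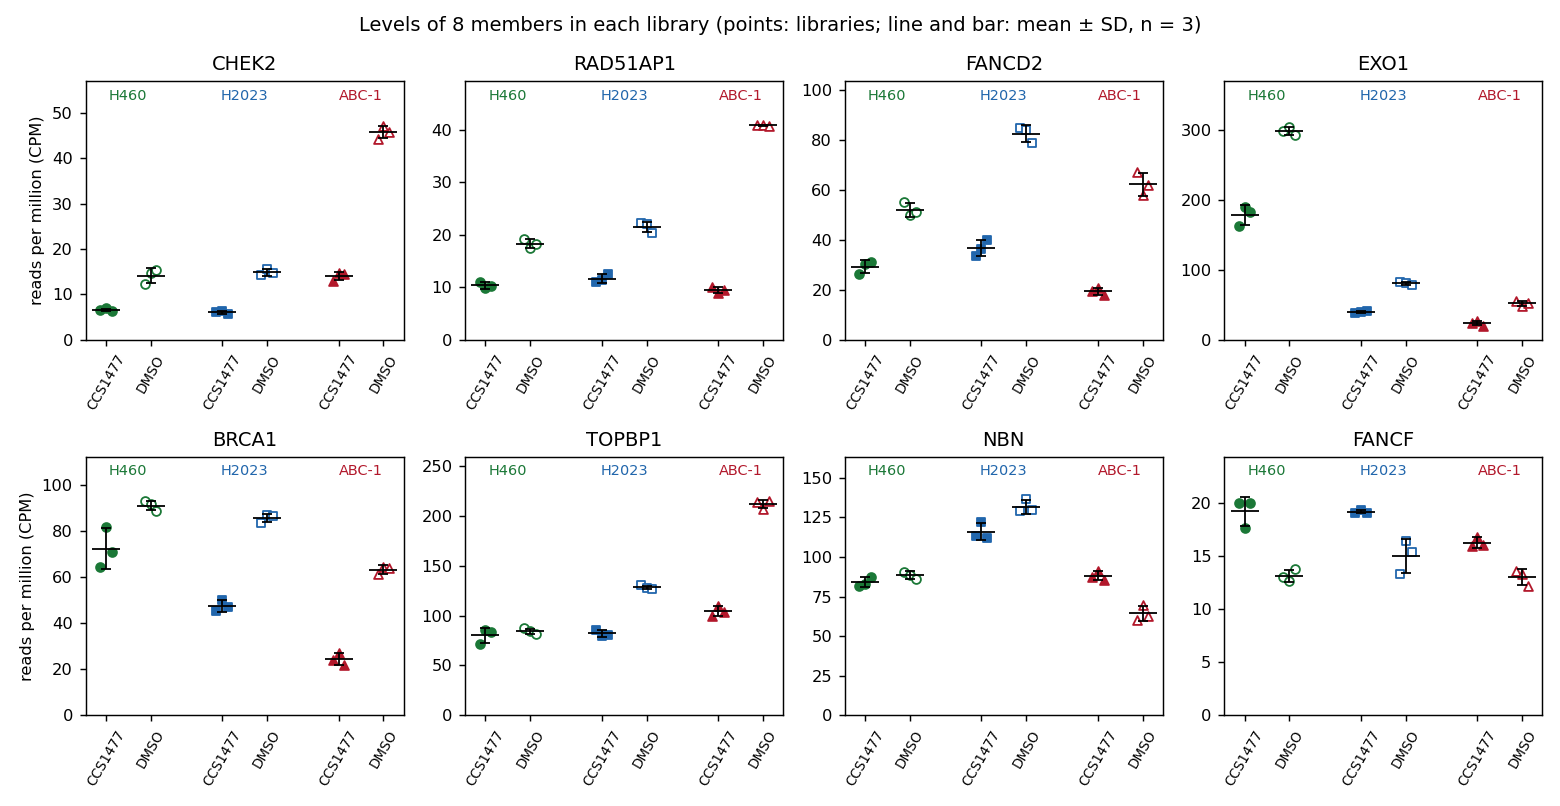
CPM of 8 members in each library, with CCS1477 (filled) and DMSO (open) side by side in H460, H2023 and ABC-1; lines and bars are mean ± SD of 3 libraries. CHEK2, RAD51AP1, FANCD2, EXO1 and BRCA1 were lower with CCS1477 in every line, TOPBP1 overlapped in H460, NBN was higher in ABC-1 and FANCF was higher in every line.

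Of the 9 genes of the Fanconi core complex and its conjugating enzyme, 2 were lower and 2 higher in H460, and 6 were lower and 1 higher in H2023 and likewise in ABC-1. Over all genes tested in H460, 27.9% were lower and 28.2% higher, shares that the counts of these genes there did not exceed. UBE2T, the ubiquitin-conjugating enzyme of the pathway, stood at 14.0, 12.0 and 13.0 CPM with CCS1477 in ABC-1, against 24.9, 27.5 and 26.3 CPM with DMSO. It had 30.3, 31.9 and 34.7 CPM with CCS1477 in H2023, against 47.4, 46.1 and 43.1 CPM with DMSO, and 59.4, 57.0 and 60.1 CPM with CCS1477 in H460, against 66.7, 65.4 and 65.5 CPM with DMSO. The groups were apart in all lines, and the log2 changes were -0.24 ± 0.04, -0.55 ± 0.06 and -1.06 ± 0.09 in H460, H2023 and ABC-1 (adjusted p = 0.00167, 2.91e-05 and 7.97e-07). FANCG, which holds FANCA in the complex, had 13.3, 10.7 and 13.3 CPM with CCS1477 in ABC-1, against 25.4, 24.0 and 24.9 CPM with DMSO. FANCG fell by 0.31 ± 0.06 in H460, by 0.66 ± 0.07 in H2023 and by 1.04 ± 0.10 in ABC-1 on the log2 scale, with no overlap of its groups in any line.

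FANCA, the gene most often mutated in Fanconi anaemia, stood at 7.66, 10.4 and 7.20 CPM with CCS1477 in ABC-1, against 14.6, 17.6 and 20.4 CPM with DMSO, and changed by -1.10 ± 0.15 (adjusted p = 5.61e-05). In H2023 FANCA changed by -0.34 ± 0.08 (adjusted p = 0.00422) although 1 CCS1477 library, at 33.5 CPM, was above the lowest DMSO library, at 33.3 CPM. In H460 all CCS1477 libraries of FANCA, 40.8, 36.9 and 35.6 CPM, lay above the DMSO libraries, 33.7, 33.5 and 32.8 CPM, and the log2 change of 0.11 ± 0.06 was not called (adjusted p = 0.164). Exons of FANCA overlap those of ZNF276 on the other strand over 2302 bases. FANCB, which works with the ligase subunit, and FANCC changed by 0.08 ± 0.08 and -0.15 ± 0.07 in H460, neither called (adjusted p = 0.415 and 0.0966). In H2023 they changed by -0.53 ± 0.10 and -0.54 ± 0.06, and in ABC-1 they changed by -0.71 ± 0.12 and -0.49 ± 0.09. FANCC had 29.4, 31.3 and 27.9 CPM with CCS1477 in H2023, against 41.6, 41.5 and 41.0 CPM with DMSO, with no overlap.

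FANCF, an adaptor of the core complex, was the only member called higher in all 3 lines. It stood at 19.96, 17.6 and 20.01 CPM with CCS1477 in H460, against 13.0, 12.7 and 13.8 CPM with DMSO, and at 19.1, 19.3 and 19.1 CPM with CCS1477 in H2023, against 13.3, 16.4 and 15.3 CPM with DMSO. In ABC-1 FANCF had 16.0, 16.8 and 16.0 CPM with CCS1477, against 13.6, 13.3 and 12.2 CPM with DMSO. No groups overlapped, and FANCF rose by 0.47 ± 0.08, 0.30 ± 0.09 and 0.26 ± 0.08 on the log2 scale in H460, H2023 and ABC-1 (adjusted p = 0.00111, 0.0127 and 0.0156). The ABC-1 call of FANCF ended without CCS1477 replicate 2 (adjusted p = 0.0523) or DMSO replicate 3 (adjusted p = 0.0558), which leaves 1 member higher in that line. Its exons share 333 bases with GAS2 on the other strand. FANCE, the subunit that touches FANCD2, had 17.0, 13.5 and 11.9 CPM with CCS1477 in H460, against 8.40, 9.86 and 9.06 CPM with DMSO, and 13.7, 14.9 and 11.8 CPM with CCS1477 in ABC-1, against 16.4, 17.4 and 18.4 CPM with DMSO. FANCE was thus higher with CCS1477 in H460, at 0.54 ± 0.13 (adjusted p = 0.0086), and lower in ABC-1, at -0.43 ± 0.10 (adjusted p = 0.00232), with no overlap in either line.

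FANCL, the ubiquitin ligase subunit itself, had 25.8, 24.9 and 22.1 CPM with CCS1477 in ABC-1, against 26.8, 25.2 and 21.9 CPM with DMSO, and 15.4, 17.9 and 16.2 CPM with CCS1477 in H2023, against 19.6, 16.8 and 18.2 CPM with DMSO. Its groups overlapped in every line, and its changes of 0.00 ± 0.10, -0.19 ± 0.08 and -0.08 ± 0.09 in H460, H2023 and ABC-1 were not called (adjusted p = 0.975, 0.071 and 0.455). FANCM, the translocase that anchors the complex to DNA, had the widest SE of the members in H2023. In H2023 it had 16.0, 4.55 and 11.4 CPM with CCS1477, against 23.9, 16.6 and 15.1 CPM with DMSO, groups that overlapped. Its change of -0.98 ± 0.35 in H2023 (adjusted p = 0.0315) came to -0.48 without CCS1477 replicate 2 (adjusted p = 0.0504), and the call also ended without DMSO replicate 1 (adjusted p = 0.109), without DMSO replicate 2 (adjusted p = 0.0586) and with no filter on low genes (adjusted p = 0.0591). With transcript rows added the H2023 change was -0.50 (adjusted p = 0.0233) and the ABC-1 change -0.47 (adjusted p = 0.0205), where the gene row alone gave -0.62 ± 0.30 (adjusted p = 0.0906).

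The ubiquitinated pair of the pathway fell in all 3 lines. FANCD2 stood at 19.4, 20.6 and 18.0 CPM with CCS1477 in ABC-1, against 67.0, 57.8 and 61.9 CPM with DMSO, and at 33.7, 36.1 and 40.0 CPM with CCS1477 in H2023, against 84.8, 84.1 and 78.6 CPM with DMSO. In H460 FANCD2 had 26.2, 30.5 and 30.9 CPM with CCS1477, against 55.2, 49.8 and 51.2 CPM with DMSO. In every line the highest CCS1477 library was well below the lowest DMSO library. FANCD2 changed by -0.91 ± 0.07, -1.22 ± 0.07 and -1.73 ± 0.07 in H460, H2023 and ABC-1 (adjusted p = 3.1e-05, 7.79e-08 and 1.56e-09), which in ABC-1 is a decrease of the level by 69.9% on the deposited scale. FANCI, its partner in the clamp, had 52.9, 54.1 and 53.1 CPM with CCS1477 in ABC-1, against 127, 126 and 119.5 CPM with DMSO. FANCI changed by -0.26 ± 0.04, -0.48 ± 0.04 and -1.28 ± 0.04 in the 3 lines, less than FANCD2 in each, and its groups did not overlap. A pseudogene copy, FANCD2P2, is annotated, so reads of FANCD2 could have been shared.

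BLM, the helicase mutated in Bloom syndrome, and its partners RMI1 and RMI2 untangle joined chromatids with a topoisomerase. RMI2 stood at 7.78, 8.47 and 8.77 CPM with CCS1477 in ABC-1, against 27.3, 32.6 and 30.1 CPM with DMSO, and at 9.05, 10.1 and 9.58 CPM with CCS1477 in H2023, against 23.0, 24.5 and 20.8 CPM with DMSO. In H460, where RMI2 was lowest with DMSO, it had 6.05, 6.59 and 6.18 CPM with CCS1477, against 9.91, 11.1 and 9.31 CPM with DMSO. All groups were apart, and RMI2 changed by -0.74 ± 0.10, -1.28 ± 0.09 and -1.87 ± 0.09 in H460, H2023 and ABC-1 (adjusted p = 0.00031, 4.92e-07 and 1.38e-08). RMI1 fell by 0.27 ± 0.05, 0.65 ± 0.06 and 0.73 ± 0.06 on the log2 scale in the same lines, also with no overlap. BLM had 21.7, 25.5 and 25.6 CPM with CCS1477 in ABC-1, against 43.6, 44.0 and 49.6 CPM with DMSO, and 32.5, 38.0 and 36.3 CPM with CCS1477 in H460, against 27.0, 34.3 and 30.4 CPM with DMSO. The H460 groups of BLM overlapped, at 0.15 ± 0.10 (adjusted p = 0.218), while it changed by -0.59 ± 0.08 in H2023 and by -0.97 ± 0.07 in ABC-1.

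Of the genes that sense and resect DNA ends, all 5 were lower in H460, 4 were in H2023 and 3 were in ABC-1, where NBN was higher. EXO1, the exonuclease of long resection, carried the largest change of the group in every line. It stood at 162, 190.0 and 182 CPM with CCS1477 in H460, against 297, 304 and 292 CPM with DMSO, at 38.4, 40.0 and 41.6 CPM with CCS1477 in H2023, against 82.9, 80.4 and 78.2 CPM with DMSO, and at 24.1, 26.7 and 20.1 CPM with CCS1477 in ABC-1, against 54.7, 48.6 and 52.5 CPM with DMSO. Its groups were far apart in each line, although H460 kept more EXO1 with CCS1477 than the other lines had with DMSO. EXO1 changed by -0.82 ± 0.06, -1.06 ± 0.05 and -1.19 ± 0.09 in H460, H2023 and ABC-1 (adjusted p = 1.82e-05, 2.65e-08 and 3.83e-07). MRE11, the nuclease that starts resection, had 27.6, 30.2 and 25.4 CPM with CCS1477 in ABC-1, against 47.6, 50.1 and 49.7 CPM with DMSO, a change of -0.88 ± 0.07. MRE11 changed by -0.32 ± 0.06 in H2023 and by -0.19 ± 0.06 in H460 (adjusted p = 0.0233), and the H460 call ended without any 1 of the DMSO libraries (adjusted p 0.059 to 0.069) and with scaling by library totals, at -0.11 (adjusted p = 0.121). RBBP8 (CtIP), its cofactor, changed by -0.19 ± 0.06, -0.27 ± 0.07 and -0.28 ± 0.05 in H460, H2023 and ABC-1, and its H460 call (adjusted p = 0.0279) ended without DMSO replicate 1 or 3 (adjusted p 0.0744 and 0.103) and with scaling by library totals, at -0.12 (adjusted p = 0.132).

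MRE11, RAD50 and NBN form one complex at the break, and their calls differed in ABC-1. NBN, its regulatory subunit, had 87.5, 91.3 and 85.6 CPM with CCS1477 in ABC-1, against 60.5, 69.9 and 62.7 CPM with DMSO, all CCS1477 libraries above all DMSO libraries. It rose by 0.39 ± 0.06 on the log2 scale there (adjusted p = 0.000166). In H2023 NBN had 113, 122 and 112 CPM with CCS1477, against 129, 137 and 129.7 CPM with DMSO, a change of -0.24 ± 0.05 with no overlap (adjusted p = 0.00105). In H460 its groups overlapped, at 81.8, 82.7 and 87.5 CPM with CCS1477, against 90.8, 88.7 and 85.9 CPM with DMSO. The H460 change of NBN, -0.15 ± 0.04 (adjusted p = 0.0224), was no longer called without CCS1477 replicate 2 or DMSO replicate 1 or 2 (adjusted p 0.071 to 0.0792) or with scaling by library totals, at -0.07 (adjusted p = 0.178). RAD50, the ATPase that tethers the ends, had 43.3, 44.5 and 43.0 CPM with CCS1477 in H460, against 47.5, 49.0 and 50.1 CPM with DMSO, and changed by -0.24 ± 0.04 (adjusted p = 0.00235). This call ended when the transcript rows of RAD50, which held 50.3 to 55.3% of its reads, were added, at -0.03 (adjusted p = 0.795). In H2023 and ABC-1 RAD50 changed by -0.17 ± 0.08 and -0.06 ± 0.08 and its groups overlapped (adjusted p = 0.0907 and 0.54). Exons of RAD50 share 7784 bases with AC116366.3 on the same strand.

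Of the checkpoint genes, 2 were lower in H460, all 5 were in H2023 and 3 were in ABC-1. CHEK2, the kinase that ATM activates, had the lowest change of any member in H460 and H2023. It stood at 6.55, 6.88 and 6.40 CPM with CCS1477 in H460, against 12.2, 14.6 and 15.4 CPM with DMSO, at 6.12, 6.33 and 5.64 CPM with CCS1477 in H2023, against 14.2, 15.7 and 14.8 CPM with DMSO, and at 12.9, 14.6 and 14.5 CPM with CCS1477 in ABC-1, against 44.3, 47.0 and 45.8 CPM with DMSO. The CCS1477 libraries of ABC-1 thus reached about the level of the DMSO libraries of the other lines, and in no line did the groups overlap. CHEK2 changed by -1.14 ± 0.10, -1.32 ± 0.10 and -1.75 ± 0.07 in H460, H2023 and ABC-1 (adjusted p = 4.81e-05, 7.7e-07 and 2.06e-09). The annotation names 4 pseudogene copies of CHEK2, and reads could have been shared with them.

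CHEK1, the kinase that ATR activates, had 25.7, 28.8 and 25.2 CPM with CCS1477 in ABC-1, against 57.1, 58.5 and 58.6 CPM with DMSO, and 33.9, 36.5 and 33.9 CPM with CCS1477 in H2023, against 60.1, 66.9 and 55.9 CPM with DMSO. In H460 it had 34.5, 38.7 and 39.8 CPM with CCS1477, against 45.3, 44.1 and 43.1 CPM with DMSO, and the groups were apart in all lines. CHEK1 changed by -0.30 ± 0.06, -0.85 ± 0.07 and -1.18 ± 0.06 in H460, H2023 and ABC-1 (adjusted p = 0.00381, 1.75e-06 and 1.29e-08). TOPBP1, the scaffold that activates ATR, stood at 99.98, 109.9 and 104 CPM with CCS1477 in ABC-1, against 214, 207 and 214 CPM with DMSO, and at 85.9, 79.7 and 80.9 CPM with CCS1477 in H2023, against 130.3, 128 and 127 CPM with DMSO. Its groups overlapped in H460, where the change was -0.15 ± 0.07 (adjusted p = 0.108), and it changed by -0.69 ± 0.04 in H2023 and by -1.08 ± 0.04 in ABC-1. ATM had 45.2, 56.0 and 55.1 CPM with CCS1477 in H2023, against 73.2, 61.1 and 63.6 CPM with DMSO, a change of -0.39 ± 0.09 (adjusted p = 0.00253) that was -0.25 with transcript rows added (adjusted p = 0.000149). ATM in H460 and ABC-1 changed by 0.09 ± 0.08 and 0.01 ± 0.06, with groups that overlapped (adjusted p = 0.369 and 0.894). ATR changed by -0.09 ± 0.06 in H460, by -0.18 ± 0.06 in H2023 and by -0.03 ± 0.06 in ABC-1, and its groups overlapped in every line. The H2023 call of ATR (adjusted p = 0.0153) ended without CCS1477 replicate 1 or DMSO replicate 2 (adjusted p 0.0586 and 0.0636) and when scaled by library totals (adjusted p = 0.0543).

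Whether a member changed differently in 2 lines was tested as the difference of the log2 changes, with limma on 18 libraries and 11757 genes together. The change was higher, that is less negative, in H460 than in ABC-1 for 27 of the 37 members and lower for 1, NBN, against a background of 26.6% higher and 24.0% lower. It was higher in H2023 than in ABC-1 for 16 members and lower for 3 (background 21.2% and 23.6%), the 3 being RAD51D, NBN and ATM. It was higher in H460 than in H2023 for 19 members and lower for none (background 18.4% and 11.9%); with limma the lower count was 0 also at an unadjusted p under 0.05, and it was 0 with limma-voom. The median difference over the members was 0.73 for H460 minus ABC-1, 0.33 for H2023 minus ABC-1 and 0.38 for H460 minus H2023, against 0.01, -0.02 and 0.03 over all genes. In 27 members (73.0%) the change was lowest in ABC-1, then in H2023 and highest in H460, an order held by 24.0% of all genes. Without DMSO replicate 2 of ABC-1 the count of members with a lower change in H460 than in ABC-1 was 2.

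**Figure D3:**
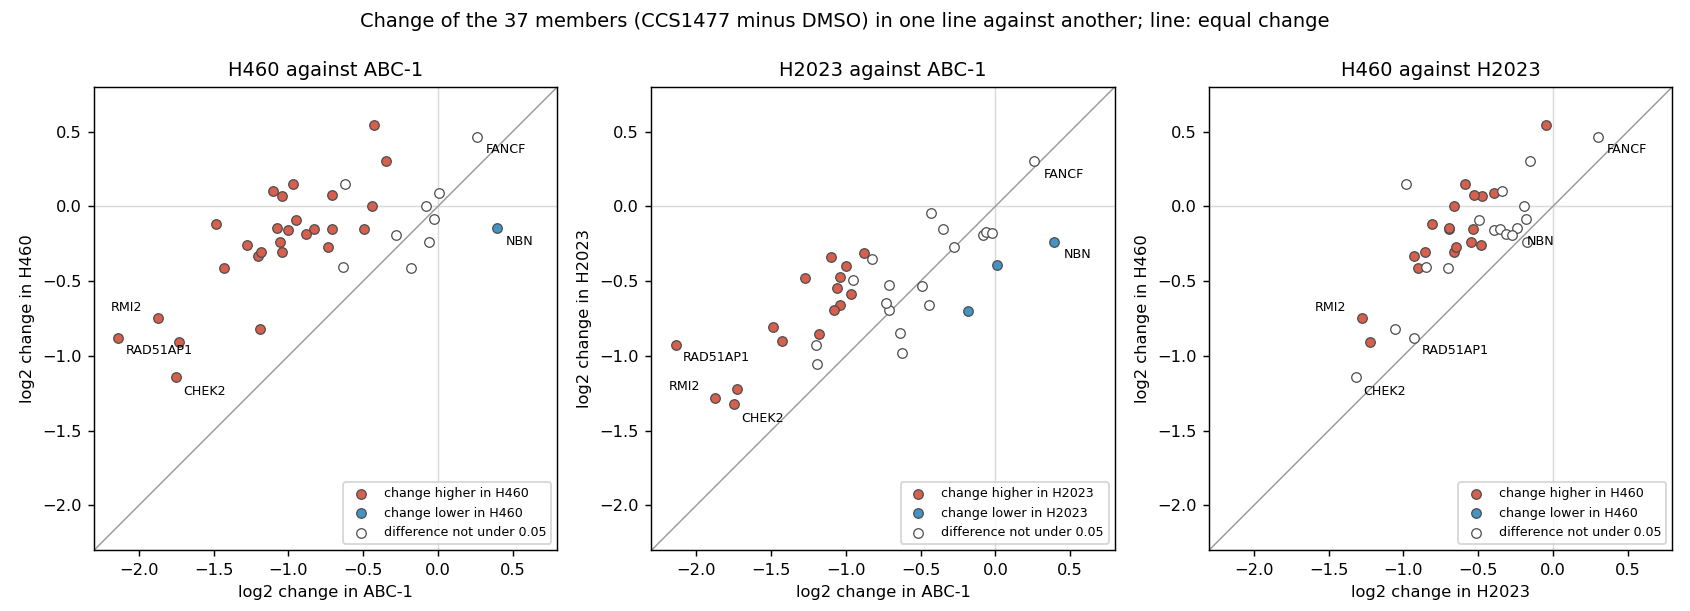
Log2 change of the 37 members, CCS1477 minus DMSO, in one line (vertical) against another (horizontal), for H460 and ABC-1, H2023 and ABC-1, and H460 and H2023; filled points are members whose changes differed at an adjusted p under 0.05 and the diagonal is equal change. Most points lie above the diagonal in each panel, and NBN lies below it against ABC-1.

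RAD54L had the largest difference, 1.37 ± 0.11 for H460 minus ABC-1 (adjusted p = 8.79e-09), and also differed between H2023 and ABC-1 by 0.68 ± 0.11 and between H460 and H2023 by 0.69 ± 0.11. RAD51AP1 differed by 1.26 ± 0.10 for H460 minus ABC-1 and by 1.21 ± 0.10 for H2023 minus ABC-1, and for H460 minus H2023 the value was 0.04 ± 0.10 (adjusted p = 0.781). FANCA differed by 1.20 ± 0.17 for H460 minus ABC-1 (adjusted p = 1.4e-05), RMI2 by 1.13 ± 0.13 (adjusted p = 1.34e-06) and FANCI by 1.02 ± 0.05 (adjusted p = 4.05e-11). NBN ran the other way, by -0.54 ± 0.08 for H460 minus ABC-1 and -0.63 ± 0.08 for H2023 minus ABC-1 (adjusted p = 1.85e-05 and 4e-06). For 7 members no pair of lines differed at an adjusted p under 0.05, namely XRCC3, FANCF, FANCL, FANCM, RAD50, RBBP8 and ATR, and the SE was widest for FANCM, at 0.54 for H460 minus ABC-1. Some differences were no longer called without 1 library. That of RAD51B for H460 minus ABC-1 ended without CCS1477 replicate 3 or DMSO replicate 1 of H460, or without CCS1477 replicate 1 or DMSO replicate 2 of ABC-1 (adjusted p 0.0556 to 0.0644). For H2023 minus ABC-1, BLM ended without CCS1477 replicate 1 or DMSO replicate 1 of H2023 or CCS1477 replicate 1 or DMSO replicate 3 of ABC-1 (adjusted p 0.062 to 0.0763), and ATM without CCS1477 replicate 1 or DMSO replicate 1 of H2023 or DMSO replicate 1 of ABC-1 (adjusted p 0.0507 to 0.0522). For H460 minus H2023, FANCE ended without CCS1477 replicate 1 or DMSO replicate 1 of H460 or CCS1477 replicate 3 or DMSO replicate 3 of H2023 (adjusted p 0.0562 to 0.0688), and UBE2T without CCS1477 replicate 1 of H2023 (adjusted p = 0.054). FANCG ended without DMSO replicate 2 of H460 or CCS1477 replicate 2 of H2023 (adjusted p 0.061 and 0.0627), and FANCD2 without CCS1477 or DMSO replicate 2 or 3 of H460 or CCS1477 or DMSO replicate 1 or 2 of H2023 (adjusted p 0.0592 to 0.0884).

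Levels in DMSO libraries were compared between lines as CPM only, with no test, since the tables were each normalized on their own. The median member stood at 31.5 CPM in DMSO libraries of H460, 38.8 CPM in H2023, with 33.7 CPM in ABC-1. H2023 had the highest DMSO level of the 3 lines for 18 members, H460 for 10 and ABC-1 for 9. As a ratio of the highest to the lowest line, the widest spread was that of EXO1, 5.74, at 298 ± 6.07 CPM in H460, 80.5 ± 2.35 CPM in H2023, with 51.9 ± 3.09 CPM in ABC-1 (mean ± SD, n = 3 each), then that of XRCC3, 3.63, at 33.6 ± 2.28, 22.2 ± 0.81 and 9.26 ± 1.09 CPM in the same lines. CHEK2 and RMI2 were highest in ABC-1: CHEK2 averaged 14.1 ± 1.64 CPM in H460, 14.9 ± 0.74 CPM in H2023, with 45.7 ± 1.35 CPM in ABC-1, and RMI2 10.1 ± 0.91, 22.8 ± 1.88 and 30.01 ± 2.63 CPM. TOPBP1 averaged 84.4 ± 2.55 CPM in H460, 128 ± 1.77 CPM in H2023, with 212 ± 4.37 CPM in ABC-1. The levels of CHEK2 in H460 and H2023 differed by less than the larger of their SDs, and so did those of FANCI in H460 and ABC-1, at 127 ± 1.63 and 124 ± 4.29 CPM. Per kb of exon, the highest DMSO levels were those of EXO1, UBE2T and FANCI in H460, of UBE2T, NBN and EXO1 in H2023 and of TOPBP1, FANCI and RAD51AP1 in ABC-1, and RAD51B and RAD51C were the lowest in every line.

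**Figure D4:**
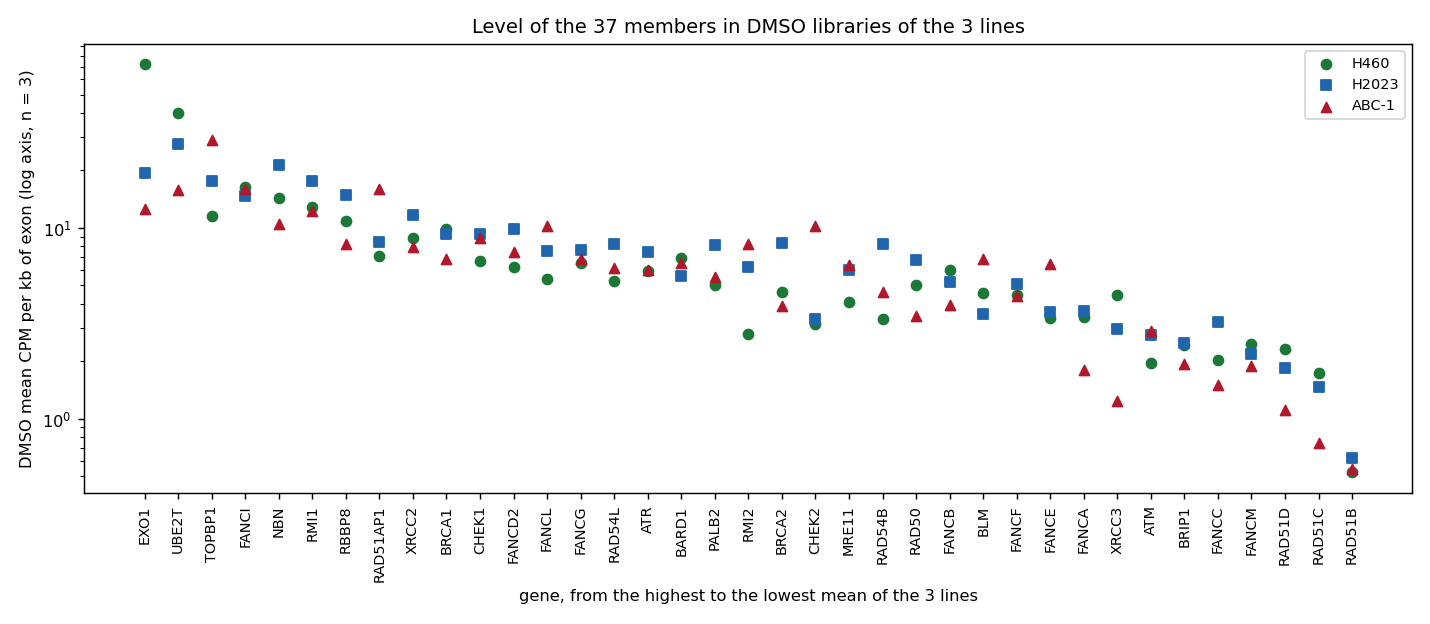
Mean level of the 37 members in DMSO libraries (n = 3) of H460 (circles), H2023 (squares) and ABC-1 (triangles), in CPM per kb of exon on a log axis, from the highest to the lowest mean. EXO1 stands highest in H460, TOPBP1, CHEK2 and RAD51AP1 in ABC-1, and RAD51B is lowest in all lines.

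Other genes of the same pathways had list medians above the median of all members together. In H460, however, the members of the Fanconi core complex and its conjugating enzyme had a median of 0.08. The lists of other homologous recombination, Fanconi and checkpoint genes had -0.09, -0.12 and -0.09 there. In ABC-1 the end sensing and resection members had a median of -0.28, above the -0.44 of the other checkpoint genes. Every other role median lay below these list medians in its line. Of 28 other homologous recombination genes, 8 were lower and 4 higher in H460, 14 lower and 3 higher in H2023, and 14 lower and 5 higher in ABC-1, with medians of -0.09, -0.19 and -0.20. EME1, a subunit of a junction nuclease, changed by -1.48 in ABC-1, MUS81, its partner, had the lowest change in H460 at -0.48, and SLX4, the nuclease scaffold, the highest in H460 at 0.75 and in ABC-1 at 0.55. Of 10 other Fanconi pathway genes, 3 were lower and 2 higher in H460, 3 lower and 3 higher in H2023, and 4 lower and 3 higher in ABC-1. FAAP24, a partner of FANCM, changed by -1.22 ± 0.16 in H2023 and -1.13 ± 0.21 in ABC-1, and USP1, which removes ubiquitin from FANCD2, by -1.27 ± 0.05 in ABC-1. MAD2L2, a subunit of a translesion polymerase, rose by 0.87 ± 0.10, 0.60 ± 0.05 and 0.52 ± 0.07 on the log2 scale in H460, H2023 and ABC-1. Of 16 other checkpoint genes, 4 were lower and 5 higher in H460, 9 lower and 3 higher in H2023, and 11 lower and 2 higher in ABC-1. WEE1, the kinase that holds CDK1 inactive, fell to 47.6 CPM with CCS1477, against 117 CPM with DMSO, in ABC-1, and H2AX, the histone marked at breaks, rose by 0.66 ± 0.10 in H460 and 0.63 ± 0.04 in H2023 and fell in ABC-1, at -0.43 ± 0.04.

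**Figure D5:**
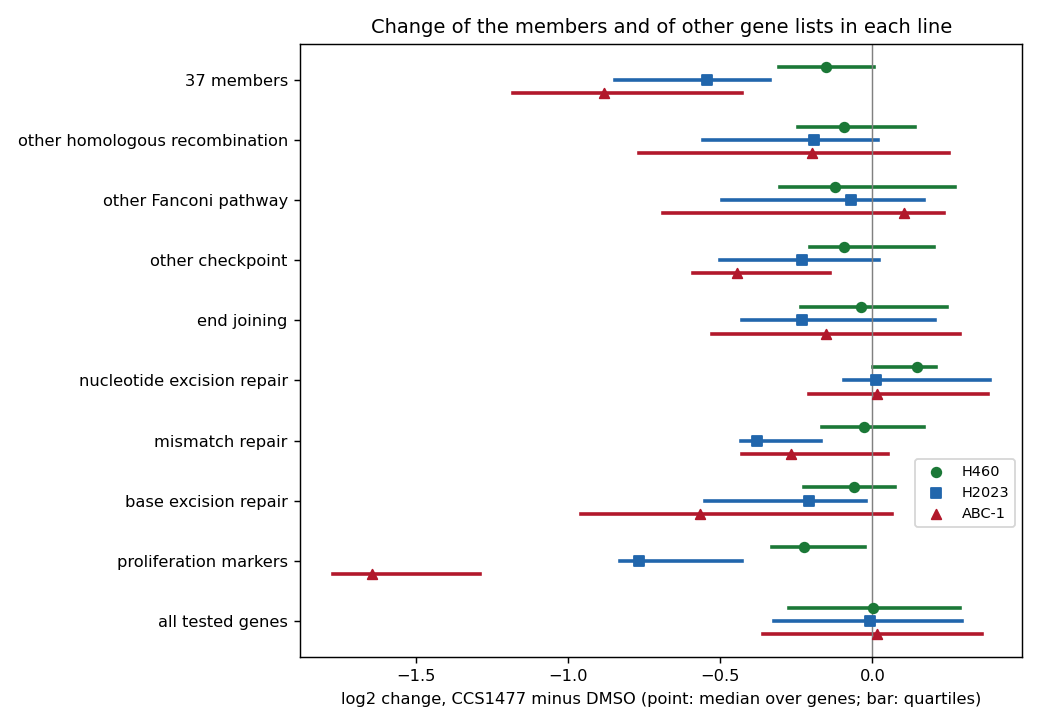
Median log2 change (points) and quartiles (bars), CCS1477 minus DMSO, of the 37 members, of other repair and checkpoint lists, of proliferation markers and of all genes tested, in H460, H2023 and ABC-1. The members have lower medians than the other repair lists in each line, and the proliferation markers have the lowest medians.

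Lists of the other repair routes also had medians above the median of all members together. Of 12 nucleotide excision repair genes, 1 was lower and 5 higher in H460, 2 lower and 4 higher in H2023 and 1 lower and 4 higher in ABC-1, with medians of 0.15, 0.01 and 0.01; ERCC6, the transcription-coupled repair factor, rose by 0.98 ± 0.05, 0.83 ± 0.10 and 1.03 ± 0.04 on the log2 scale in H460, H2023 and ABC-1. End joining genes, 10 in number, were lower in 4, 6 and 5 cases and higher in 3 in each line, with medians of -0.04, -0.23 and -0.15. Of 7 mismatch repair genes, 2 were lower and 2 higher in H460, 5 lower and 1 higher in H2023, and 5 lower and 2 higher in ABC-1, with medians of -0.03, -0.38 and -0.27. The base excision repair list had 6 of 17 genes lower and 2 higher in H460, 10 lower and 2 higher in H2023, and 10 lower and 3 higher in ABC-1, at medians of -0.06, -0.21 and -0.57. In H2023 the medians of mismatch repair, end joining and base excision repair were below that of the other homologous recombination genes (-0.19). In ABC-1 those of base excision repair and mismatch repair were below it (-0.20), and in H460 none was. The lowest called genes of base excision repair were PARP2 and NEIL3 in H460, at -0.75 ± 0.07 and -0.65 ± 0.06, NEIL3 and PARP2 in H2023, at -1.46 ± 0.05 and -0.96 ± 0.08, and FEN1 and NEIL3 in ABC-1, at -1.29 ± 0.05 and -1.22 ± 0.08. No list was tested against another, and these counts and medians are a description.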

How the data were processed

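Total RNA of H460, H2023 and ABC-1 cells was sequenced in 18 libraries from a directional kit, per the labels' protocols. The authors deposited 1 table of log2 values per line, and the build was GRCh38, per the submitters' processing notes; aligner, counter and use of strand were not given in the sources used here. All deposited values up to 1000 reads came back as whole reads within 0.1 once the log2 was undone and a constant of 4 subtracted, and CPM used the total of all rows. Transcript rows, 9.19 to 10.7% of reads, were left out of the gene rows. Counting error at 1 CPM was 17.3 to 26.3%.

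Gene rows with 1 CPM or more in at least 3 of 6 libraries were fitted with limma 3.58.1 (trend, two-sided, R 4.3.3) on the deposited log2 values, 13516, 14572 and 13543 genes in H460, H2023 and ABC-1. A count test was not the main one because the values are log2; limma-voom on the recovered reads was an alternative. The fit was tested on simulated data. A log2 change on this scale understates low genes. Alternatives were other scalings, constants and filters, transcript rows added, a replicate block and each library left out. All 37 members may be named, and of other lists the 2 lowest and the highest called gene per line; 2 of these genes are not reported here. Members and lists were chosen with earlier results of these data known. Coordinates and exon lengths are from GENCODE 29 and promoters from RefSeq.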

Additional observations from a re-analysis of the deposited data

Results flagged for a closer look

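The change of 28 members with CCS1477 differed between H460 and ABC-1 in the test of the difference itself (limma, adjusted p under 0.05). On the log2 scale, H460 minus ABC-1, the difference was 1.02 for BRCA1, 0.85 for BARD1, 0.68 for BRIP1, 0.56 for PALB2 and 0.44 for BRCA2. Among strand exchange factors it was 0.86 for RAD51B, 0.65 for RAD51C, 0.87 for XRCC2, 1.26 for RAD51AP1 and 1.37 for RAD54L. It was 1.11 for RAD54B, 1.20 for FANCA, 0.79 for FANCB, 0.34 for FANCC and 0.97 for FANCE. The values were 0.73 for FANCG, 0.82 for UBE2T, 0.82 for FANCD2, 1.02 for FANCI and 1.12 for BLM. Further values were 0.46 for RMI1, 1.13 for RMI2, 0.69 for MRE11, 0.37 for EXO1 and 0.88 for CHEK1. The checkpoint genes CHEK2 and TOPBP1 had 0.61 for CHEK2 and 0.93 for TOPBP1. NBN differed in the other direction, at -0.54.

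Between H2023 and ABC-1 the change of 19 members differed. The difference of H2023 minus ABC-1 was 0.53 for BRCA1, 0.60 for BARD1, 1.21 for RAD51AP1, 0.68 for RAD54L and 0.57 for RAD54B. Among Fanconi genes it was 0.76 for FANCA, 0.38 for FANCG, 0.51 for UBE2T, 0.51 for FANCD2 and 0.79 for FANCI. Other values were 0.38 for BLM, 0.59 for RMI2, 0.57 for MRE11, 0.33 for CHEK1 and 0.43 for CHEK2. It was also 0.38 for TOPBP1. The 3 that ran the other way were -0.52 for RAD51D, -0.63 for NBN and -0.40 for ATM.

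Between H460 and H2023 the change of 19 members also differed. For H460 minus H2023 the difference was 0.49 for BRCA1, 0.54 for PALB2, 0.66 for BRCA2, 0.60 for XRCC2 and 0.69 for RAD54L. It was likewise 0.54 for RAD54B, 0.60 for FANCB, 0.38 for FANCC, 0.59 for FANCE and 0.35 for FANCG. Further differences were 0.31 for UBE2T, 0.31 for FANCD2, 0.22 for FANCI, 0.74 for BLM and 0.38 for RMI1. The last values were 0.53 for RMI2, 0.48 for ATM, 0.55 for CHEK1 and 0.55 for TOPBP1.

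In ABC-1 the transcript rows of RAD50, which the comparisons do not use, stood at 37.7 to 40.7 CPM with CCS1477 and 27.5 to 34.8 CPM with DMSO, a ratio of means of 1.22, and every CCS1477 library was above every DMSO library. The groups of the RAD50 gene row overlapped in that line. Of the 26 members whose transcript rows averaged 1 CPM or more in a group of ABC-1, RAD50 alone lay wholly above DMSO. The transcript rows of 11 members lay wholly below it. No such rise was seen in the other lines, where 9 of 27 such members lay wholly below DMSO in each. No background over all genes is given for these counts.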

How the results depend on the processing

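Of 111 changes (37 members in 3 lines), 90 kept their call and direction under every alternative run. RAD51C in H460 turned to -0.035 with transcript rows added (adjusted p = 0.535). Those rows stood at 14.8 to 16.4 CPM with CCS1477 and 17.3 to 18.6 CPM with DMSO in H460, opposite in direction to the gene row. Why the transcript rows and the gene row moved apart was not tested. Scaling by library totals left 15 members lower and 4 higher in H460, and 60.2% of all called genes higher there, against 50.3% with the deposited scaling; the median of all genes was 0.07. Leaving out 1 library gave 15 to 19 members lower in H460, 1 to 2 members higher in ABC-1 and 1 to 2 members with a lower change in H460 than in ABC-1.

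With the replicate number as a block, 19 members were lower and 3 higher in H460, 32 and 1 in H2023 and 29 and 2 in ABC-1. The block gave 27 higher and 1 lower differences for H460 minus ABC-1, 16 and 3 for H2023 minus ABC-1 and 19 and 0 for H460 minus H2023. PALB2 in H460 and RAD51C in ABC-1 lost their call under the block (adjusted p = 0.0643 and 0.0777), and FANCM in ABC-1 gained one (adjusted p = 0.00173). FANCE, UBE2T and FANCD2 lost their H460 minus H2023 difference under it (adjusted p = 0.0513, 0.0655 and 0.0722). Deviations of same-numbered libraries correlated at -0.10 to 0.10. In H2023 these r, 0.03 to 0.04, were above the highest r with another number, -0.01. In ABC-1 they were -0.10 to -0.04, below the highest r with another number, 0.04 to 0.10. In H460 they were above it for replicates 1 and 2 and just below it for replicate 3. Such small r do not settle whether the numbers pair the samples. The 3 libraries per group limit the precision.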
